A study of Homo sapiens with 2 samples.

Results

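The genes described here are the 39 that encode WNT ligands, frizzled receptors and secreted WNT antagonists, among 20163 protein-coding genes. They comprised 19 ligands (WNT1 to WNT16), 10 receptors (FZD1 to FZD10) and 10 antagonists (SFRP1, SFRP2, SFRP4, SFRP5, FRZB, DKK1 to DKK4 and WIF1). They were taken by gene symbol, and a peak of open chromatin was given to a gene when it came within 3 kb of its transcription start site (TSS). This gave 82 of 114060 peaks in the DMSO library and 91 of 161184 in the MAK683 library.

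Chromatin was profiled by ATAC-seq: a transposase, Tn5, tags accessible DNA, and the sequenced ends pile up where chromatin is open. The cells were G401, a renal malignant rhabdoid tumor line that lacks the chromatin remodeling subunit SMARCB1. A culture was treated for 3 days with MAK683, an EED-binding inhibitor of the histone methyltransferase PRC2, and another with its solvent DMSO. There was 1 library per group from 1 cell line, so the values below compare 2 libraries, no p-value was computed, and whether a difference exceeds that between cultures was not tested.

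WNTs are secreted, lipid-modified glycoproteins that bind frizzled receptors together with LRP5 or LRP6 and thereby stabilize β-catenin, or act through β-catenin-independent routes. SFRP proteins, FRZB and WIF1 bind WNTs outside the cell, and Dickkopf (DKK) proteins bind the LRP co-receptors. In the developing kidney, WNT9B from the ureteric bud and WNT4 in the mesenchyme drive the conversion of nephron progenitors to epithelium. Many genes of the family have CpG-rich promoters that PRC2 can mark with H3K27me3 in cells that do not express them, and the comparison asks whether accessibility at such promoters differs once PRC2 is blocked.

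To show the DNA in which the peaks lay, 150 bases of the reference around the summit of the taller library's peak are given for 4 genes. They are SFRP4, FZD7 and FZD4, whose ratios had depth-scaled counting intervals that left out 0, and WNT2, which had a peak in MAK683 only. When the libraries were rescaled to the median of shared promoters, the intervals of FZD7 and FZD4 included 0. All are from GRCh37 (hg19), 5′ to 3′ on the strand of the gene, with CpG dinucleotides in capitals. SFRP4 (chr7:37956748-37956897, minus strand) lay in an intron of longer SFRP4 transcripts, at -478 to -329 bases from the TSS. WNT2 (chr7:116960575-116960724, minus strand) lay 2388 to 2537 bases after the TSS, with its summit in coding sequence. FZD7 (chr2:202897793-202897942, plus strand) lay at -785 to -636 bases from the TSS, with its summit in an exon of the noncoding gene ENSG00000273209. FZD4 (chr11:86667010-86667159, minus strand) lay at -722 to -573 bases from the TSS, in an intron of the divergent transcript FZD4-DT.
SFRP4: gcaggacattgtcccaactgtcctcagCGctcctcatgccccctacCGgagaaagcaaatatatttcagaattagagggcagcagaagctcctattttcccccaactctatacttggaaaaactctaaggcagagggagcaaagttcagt
WNT2: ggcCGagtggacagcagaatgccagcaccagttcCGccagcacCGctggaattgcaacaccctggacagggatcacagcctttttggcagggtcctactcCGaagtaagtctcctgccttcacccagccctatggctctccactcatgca
FZD7: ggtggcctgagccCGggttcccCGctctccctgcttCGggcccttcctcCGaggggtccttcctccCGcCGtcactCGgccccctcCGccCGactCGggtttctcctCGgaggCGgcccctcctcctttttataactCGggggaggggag
FZD4: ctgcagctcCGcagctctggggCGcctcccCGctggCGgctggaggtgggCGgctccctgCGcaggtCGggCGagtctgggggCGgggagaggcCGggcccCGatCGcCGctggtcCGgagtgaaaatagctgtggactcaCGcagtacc

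The stretches differed widely in CpG content. FZD4 held 15 CpG dinucleotides in 150 bases and FZD7 13, against 4 in WNT2 and 2 in SFRP4. Over 1 kb around the TSS, the ratio of observed to expected CpG was above 0.6 at 31 of 39 members (79.5%) and at 65.8% of all protein-coding genes, and at 10 of 10 receptors. The median GC content of these windows was 69.2% for the members and 61.2% for all genes. The core letters bound by TCF/LEF, the factors that β-catenin acts through, are CTTTGA. Within 300 bp before the TSS, read on both strands, these letters occurred at DKK1 and DKK4, 2 of 39 members (5.13%), and at 11.5% of all genes.

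The libraries held 16598348 (DMSO) and 18265284 (MAK683) tags after filtering. Peak height below is the tallest pileup of tags at a gene's promoter per 1000000 of these tags (RPM), so that 1 tag was 0.0602 RPM in DMSO and 0.0547 RPM in MAK683. A gene with no listed peak was set to 0.361 RPM, the larger of the lowest listed heights in the libraries, when a ratio was formed. Promoter height over all protein-coding genes was lower in the MAK683 library, with a median log2 ratio of MAK683 to DMSO of -0.42 over 16247 genes, and positions against that median are given where they bear on a member's direction. Of the marker genes, SMARCB1 had no listed promoter peak in either library, and neither had the blood cell gene PTPRC. The mesenchymal gene VIM had 2.65 RPM in DMSO and 2.24 RPM in MAK683. The epithelial genes CDH1 (1.08 and 0.931 RPM) and EPCAM (0.723 and 0.602 RPM) also had peaks. In bulk chromatin, a larger share of cells with an open promoter and a more open promoter in each cell cannot be told apart.

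Most members had an accessible promoter in both libraries. A promoter peak was listed at 32 of 39 members in DMSO (82.1%, 95% Wilson interval 67.3 to 91.0) and at 33 in MAK683 (84.6%, 70.3 to 92.8), against 72.7% and 78.7% of all protein-coding genes. At 30 members a peak was listed in both libraries. WNT1, WNT2 and SFRP1 had a listed peak in MAK683 only, 3 of the 7 members without one in DMSO, where the share among all genes was 28.8%. WNT8A and FZD6 had a peak in DMSO only, 2 of 32, where the share among all genes was 2.54%. WNT3, WNT5B, WNT8B and DKK4 had none in either library at the canonical TSS used here. With the TSSs of all basic transcripts, 34 members had a peak in DMSO, 35 in MAK683 and 37 in either library, so some of these genes had one at another TSS. The member peaks were low, with a median of 1.20 RPM in DMSO against 1.93 RPM over all genes.

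**Figure D1:**
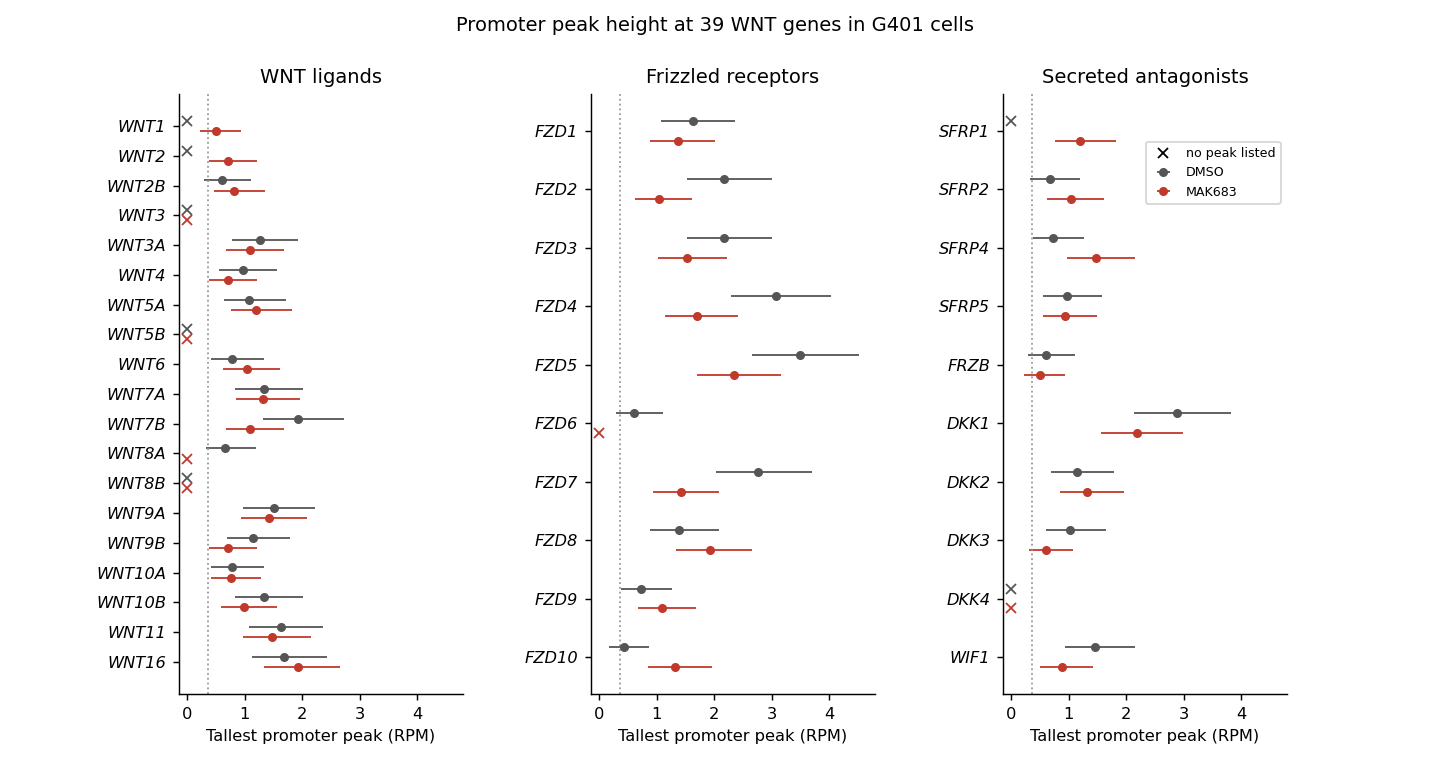
Height of the tallest promoter peak in tags per 1000000 tags after filtering (x axis) for each of the 39 genes (y axis) in 3 panels by role, with DMSO in gray and MAK683 in red. Bars are 95% exact Clopper-Pearson intervals (counting error only), crosses at 0 mark genes with no listed peak, and the dotted line is the floor of 0.361 RPM. FZD2, FZD4, FZD5 and FZD7 stand lower in MAK683, and FZD10, SFRP1 and SFRP4 stand higher.

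Promoter heights of the members differed in both directions, and their median stood above that of all genes. Of the 35 members with a peak in either library, 13 were higher in MAK683 (37.1%) where the share among all genes was 21.5%, and 22 were lower, where the share among all genes was 78.4%. The median log2 ratio was -0.14 (95% order-statistic interval -0.44 to 0.18). Relative to the all-gene median of -0.42, 22 members lay above it and 13 below. At least 2-fold higher in MAK683 were FZD10, SFRP1 and SFRP4, 3 of 35 against a background of 3.37%. That background differs with DMSO height. FZD10 and SFRP4 were 2 of 12 members under 1 RPM in DMSO, where 6.15% of all such genes were 2-fold higher. SFRP1 was 1 of 3 members with a MAK683 peak only, where 24.4% of all such genes were. At least 2-fold lower was FZD2, 1 of 35 against 5.75%. The 95% counting interval of the ratio lay above 0 at FZD10 and SFRP4, 2 of 30 members with both peaks (background 0.931%). It lay below 0 at WNT7B, FZD2, FZD4, FZD5 and FZD7, 5 of 30 (background 20.6%). When the libraries were rescaled to the same median over shared promoters, which put the median of all genes at 0.04, the members' median was 0.32 and 24 of 35 were higher. On that scale 6 were at least 2-fold higher (10.2% of all genes) and 0 at least 2-fold lower (0.406% of all genes). None of the 5 intervals then lay below 0 (0 of 30, and 0.889% of all genes). Intervals above 0 numbered 5, at FZD8, FZD9, FZD10, SFRP2 and SFRP4 (4.56% of all genes). At FZD8, FZD9 and SFRP2 the summits compared lay over 1 kb apart, so the intervals of FZD8 and FZD9 compare different places. At SFRP2 another MAK683 peak, also of 19 tags, overlapped the DMSO peak of 11 tags, so the ratio there is the same. The direction of the members' median and the lower calls therefore depended on the scaling.

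**Figure D2:**
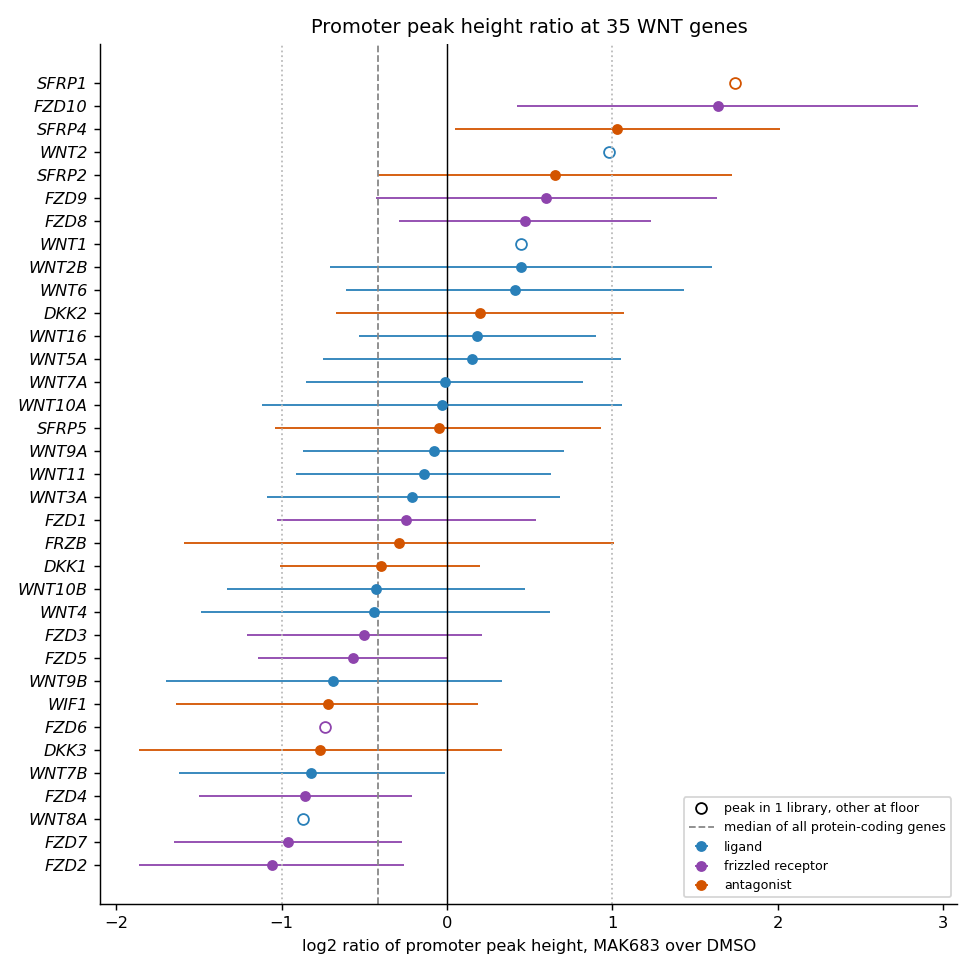
Log2 ratio of promoter height, MAK683 over DMSO, for the 35 members with a peak in either library (points, colored by role and ordered by ratio; open where 1 library was at the floor), with 95% counting intervals where both libraries had a peak. The dashed line marks the median of all 16247 genes at -0.42and the dotted lines mark 2-fold, with FZD10, SFRP1 and SFRP4 above 1 and FZD2 below -1.

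No ligand promoter was past 2-fold at 3 kb with depth scaling, where the ratio of WNT2 (0.98) is against the floor and so is a lower bound. WNT2 was past 2-fold under 3 other settings, but had 0.28 within 1 kb and 0.24 at a −log10 q of at least 5. WNT6 (1.11) and WNT11 (2.03) were past it within 1 kb, and both ratios rest on the window edge. The WNT11 peak, with 27 tags in each library, reached -859 bp in MAK683 but only -1077 bp in DMSO, which was set to the floor. At WNT6 the DMSO peak from -2160 to -1051 bp (11 tags) was left out. The overlapping MAK683 peak from -2264 to -735 bp (19 tags) was kept. Of 19 ligand genes, 14 had a peak in DMSO and 15 in MAK683, and the median log2 ratio was -0.06 (interval -0.44 to 0.41), with 6 higher and 10 lower. Of the kidney ligands, WNT9B, WNT4 and WNT11 had intervals that included 0. WNT9B, the ureteric bud signal, had 19 tags in DMSO and 13 in MAK683, a log2 ratio of -0.69 with an interval of -1.70 to 0.33. WNT4, its mesenchymal relay, had 16 and 13 tags (log2 ratio -0.44, interval -1.49 to 0.62). WNT11, expressed at ureteric tips, had 27 tags in each library (log2 ratio -0.14 after scaling). Against the median of all genes WNT9B stood at -0.26, WNT4 at -0.02 and WNT11 at 0.28. WNT7B, needed for the kidney medulla, was the only ligand whose interval left out 0, and rescaled it did not (-0.36, interval -1.16 to 0.45). Its peak, with the DMSO summit at -1598 bp from the TSS (chr22:46373544-46375303), had 32 tags (1.93 RPM) in DMSO and 20 tags (1.09 RPM) in MAK683, a log2 ratio of -0.82 (interval -1.62 to -0.01).

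WNT1 and WNT2, which signal through β-catenin, had a promoter peak in MAK683 only. WNT1 had 9 tags (0.493 RPM) in a peak of 212 bp at chr12:49371392-49371603, at -659 bp from the TSS and between genes. This is 0.45 on the log2 scale above the floor. WNT2, with roles in lung and placenta, had 13 tags (0.712 RPM) in coding sequence 2462 bp after the TSS, 0.98 above the floor. Both peaks were near the listing limit, and a height under that limit in DMSO cannot be seen. The reverse case was WNT8A, a ligand of the early embryo, with 11 tags (0.663 RPM) at chr5:137417794-137417995 in DMSO and no listed peak in MAK683, a log2 ratio of -0.87 against the floor.

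Among the ligands known for β-catenin-independent signaling, WNT5A had 18 tags in DMSO and 22 in MAK683 (log2 ratio 0.15), while WNT5B had no peak at its canonical TSS. The remaining ligands with both peaks had ratios on either side of 0. WNT3A, a β-catenin ligand (21 and 20 tags, log2 ratio -0.21), and the skin and hair ligands WNT10A (13 and 14 tags, -0.03) and WNT10B (22 and 18 tags, -0.43) had intervals that included 0. So had WNT2B (10 and 15 tags, 0.45), WNT6 (13 and 19 tags, 0.41), WNT7A (22 and 24 tags, -0.01), WNT9A (25 and 26 tags, -0.08) and the bone ligand WNT16 (28 and 35 tags, 0.18). With so few tags, an interval that includes 0 does not show equal height. Against the median of all genes these ligands stood from -0.01 (WNT10B) to 0.87 (WNT2B), with WNT6 at 0.83. At 8 of the 30 members with both peaks the summits compared lay over 1 kb apart, so different places were compared. They were WNT3A, WNT6, WNT9A, WNT10A, WNT10B, FZD8, FZD9 and SFRP2. At SFRP2, however, a MAK683 peak of equal height (19 tags) overlapped the DMSO peak (11 tags). Several ligand genes lie in pairs. WNT6 and WNT10A, 21 kb apart, had log2 ratios of 0.41 and -0.03, WNT3A and WNT9A, 59.1 kb apart, had -0.21 and -0.08, and WNT1 and WNT10B, 6.59 kb apart, had 0.45 (against the floor) and -0.43. The intervals of these ratios included 0, except that WNT1, with a peak in 1 library only, has none.

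The receptor promoters held the tallest peak of the family, and 4 of 10 stood above the median ratio of all genes. All 10 frizzled genes had a peak in DMSO and 9 had one in MAK683, with median heights of 1.90 and 1.42 RPM. The median log2 ratio was -0.54 (interval -0.96 to 0.60), which is -0.11 against the median of all genes. Of the 10, 7 were lower, with 78.4% of all genes lower, and 4 of 9 intervals lay below 0, with 20.6% of all genes. Rescaled to shared promoters, none of the 4 did. FZD2, a receptor in both branches of signaling, had 36 tags (2.17 RPM) in DMSO and 19 (1.04 RPM) in MAK683, a log2 ratio of -1.06 (interval -1.86 to -0.26). FZD7, a receptor of stem cells and many tumors, had 46 tags (2.77 RPM) and 26 (1.42 RPM), a log2 ratio of -0.96 (interval -1.65 to -0.27). FZD4, the receptor for the retinal vessel ligand norrin, had 51 tags (3.07 RPM) and 31 (1.70 RPM), a log2 ratio of -0.86 (interval -1.50 to -0.21). At all of these genes the summits of the 2 libraries lay within 100 bp of each other.

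FZD5 had the tallest promoter of all members, with 58 tags (3.49 RPM) in DMSO and 43 (2.35 RPM) in MAK683. Its log2 ratio was -0.57, with a lower end of -1.14 and an upper end just under 0. FZD3 (36 and 28 tags, log2 ratio -0.50) and FZD6 are receptors of planar cell polarity. FZD6 had 10 tags (0.602 RPM) at chr8:104310741-104311140 in DMSO and no listed peak in MAK683, -0.74 against the floor. FZD1 had 27 and 25 tags (log2 ratio -0.25). Against the median of all genes FZD1 stood at 0.17, FZD3 at -0.08 and FZD5 at -0.15.

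FZD10 went the other way. This receptor had 7 tags (0.422 RPM) in DMSO, just over the floor, in a peak of 200 bp at the TSS. In MAK683 it had 24 tags (1.31 RPM) in a peak of 2470 bp. The log2 ratio was 1.64 (interval 0.42 to 2.85). FZD8 (23 and 35 tags, log2 ratio 0.47) and FZD9 (12 and 20 tags, 0.60) were also higher, with intervals that included 0. For FZD9 the MAK683 summit lay 5080 bp after the TSS, in a peak that reached into the window. That peak overlapped a DMSO peak of 18 tags, from 3537 to 6275 bp after the TSS, which lay outside the window. The FZD9 ratio therefore compares different places, and where these peaks overlap the tags were 18 and 20.

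**Figure D3:**
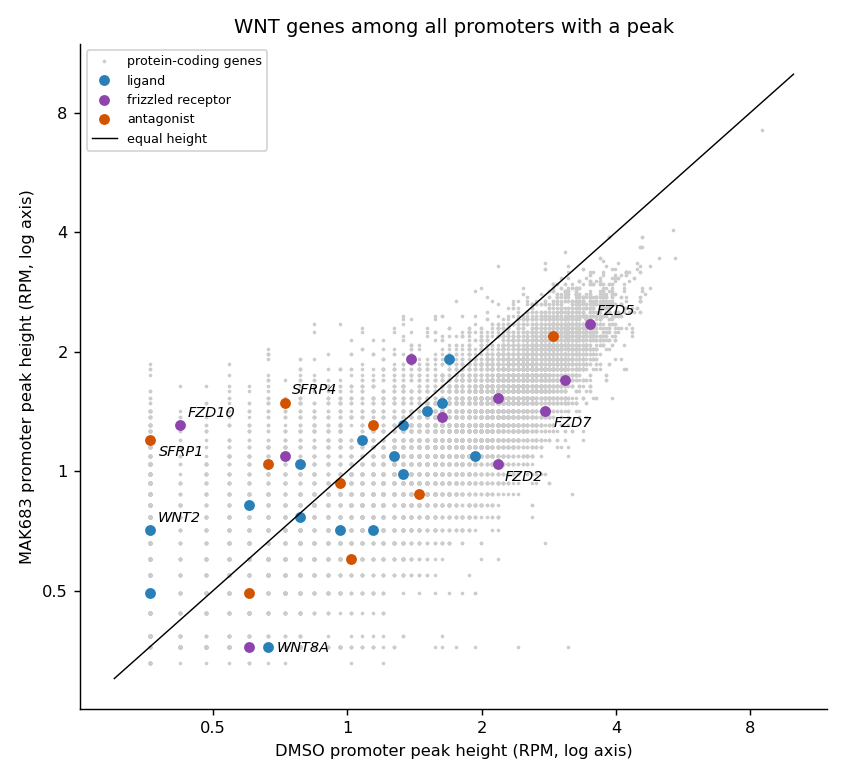
Promoter height in MAK683 (y axis, RPM) against DMSO (x axis, RPM) for all protein-coding genes with a peak in either library (gray) and for the members by role (colors), on log axes. The solid line is equality, and members with no listed peak in 1 library are drawn at the floor of 0.361 RPM, where FZD10, SFRP1 and SFRP4 lie above the line and FZD2, FZD4, FZD5 and FZD7 below it.

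Among the antagonists, the secreted frizzled-related genes SFRP1, SFRP2 and SFRP4 were higher in MAK683. The group had 8 of 10 promoters with a peak in DMSO and 9 in MAK683, and a median log2 ratio of -0.05 (interval -0.72 to 1.03), with 4 higher and 5 lower. SFRP1 is a WNT-binding protein often silenced in tumors. It had no listed peak in DMSO and 4 in MAK683, the tallest with 22 tags (1.20 RPM) in a peak of 3093 bp at chr8:41167840-41170932 whose summit lay at -3595 bp from the TSS. The log2 ratio of SFRP1 against the floor was 1.74, and rests on this summit outside the 3 kb window. The tallest SFRP1 peak with its summit inside the window had 17 tags (0.931 RPM), 2821 bp after the TSS. SFRP4, linked to phosphate handling and bone, had 12 tags (0.723 RPM) in a peak of 211 bp in DMSO and 27 tags (1.48 RPM) in a peak of 1481 bp in MAK683, a log2 ratio of 1.03 (interval 0.05 to 2.01). SFRP2 had 11 and 19 tags (log2 ratio 0.65, interval -0.42 to 1.72). It had 1 promoter peak in DMSO and 6 in MAK683.

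The other antagonists differed less or were lower. SFRP5 had 16 and 17 tags (log2 ratio -0.05), and FRZB, first known from cartilage, 10 and 9 (-0.29). DKK1, the head inducer that blocks LRP5 and LRP6, was the tallest antagonist promoter with 48 tags (2.89 RPM) in DMSO and 40 (2.19 RPM) in MAK683, a log2 ratio of -0.40 (interval -1.01 to 0.20). Its summit lay in a noncoding exon of PRKG1-AS1. DKK2 had 19 and 24 tags (0.20). DKK3, a divergent member that is not a classical WNT inhibitor, had 17 and 11 (-0.77), and the WNT-binding WIF1 had 24 and 16 (-0.72). All of these intervals included 0.

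Members were also set beside genes of like height in DMSO. DMSO height is the denominator of the ratio, so counting error alone makes genes high in DMSO tend lower and genes low in DMSO tend higher, and only the comparison within a class of height is read here. Of 6 members with 2 RPM or more in DMSO, 0 were higher in MAK683, and 1.45% of all such genes were. Of 14 members between 1 and 2 RPM, 4 were higher (28.6%), and 11.8% of all such genes were. Of 12 members under 1 RPM, 6 were higher, and 46.5% of all such genes were. A gene with no peak in DMSO was compared with the floor and could scarcely be lower, and all 3 such members with a MAK683 peak were higher (99.1% of all such genes). The receptors FZD2, FZD3, FZD4, FZD5 and FZD7, with the antagonist DKK1, make up the tallest class. What part the DMSO height had in the lower receptor promoters was not tested.

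A wider spread of open chromatin around several members was the other difference between the libraries. The length covered by peaks within 10 kb of the TSS was longer in MAK683 at 25 of 39 members (64.1%), shorter at 13 and equal at 1, where the share longer among all genes was 29.3%. Summed over the members it was 127.6 kb in DMSO and 172.5 kb in MAK683, a ratio of 1.35, while over all genes the ratio was 0.892. By role, the antagonists had 24.45 and 46.79 kb (ratio 1.91), the ligands 56.94 and 79.36 kb (1.39), and the receptors 46.24 and 46.37 kb. The ligands were longer at 15 of 19 genes, the receptors at 4 of 10 and the antagonists at 6 of 10. The windows of WNT1 and WNT10B overlap, so part of their length was counted at both genes. Among the 14 members between 1 and 2 RPM in DMSO the covered length was longer at 11 (78.6%), and at 24.8% of all such genes. Among the 12 members under 1 RPM it was longer at 7 (58.3%), close to the 54.2% of all such genes. Among the 6 members with 2 RPM or more it was longer at 1 (16.7%), and at 12.8% of all such genes. Among the 7 members with no DMSO peak it was longer at 6 (85.7%), and at 42.2% of all such genes.

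FZD10 and SFRP1 had the largest excess of covered length among the members. Around FZD10 the covered length was 439 bp in 2 peaks in DMSO and 11868 bp in 12 peaks in MAK683. Around SFRP1 it was 0 bp and 11358 bp, in 13 peaks. SFRP2 had 396 bp in 1 peak and 7349 bp in 12, and SFRP4 had 211 bp in 1 peak and 3737 bp in 5. The ligand WNT7A, which patterns the limb and the female reproductive tract, had 1504 bp in 2 peaks and 8742 bp in 13, although its promoter height was level. WNT5A went from 5022 to 8428 bp and WNT16 from 1662 to 4850 bp. The opposite was seen at FZD5, with 12989 bp in 12 peaks in DMSO and 6049 bp in 7 in MAK683, and at FZD2, with 9970 bp in 14 peaks and 4606 bp in 6.

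**Figure D4:**
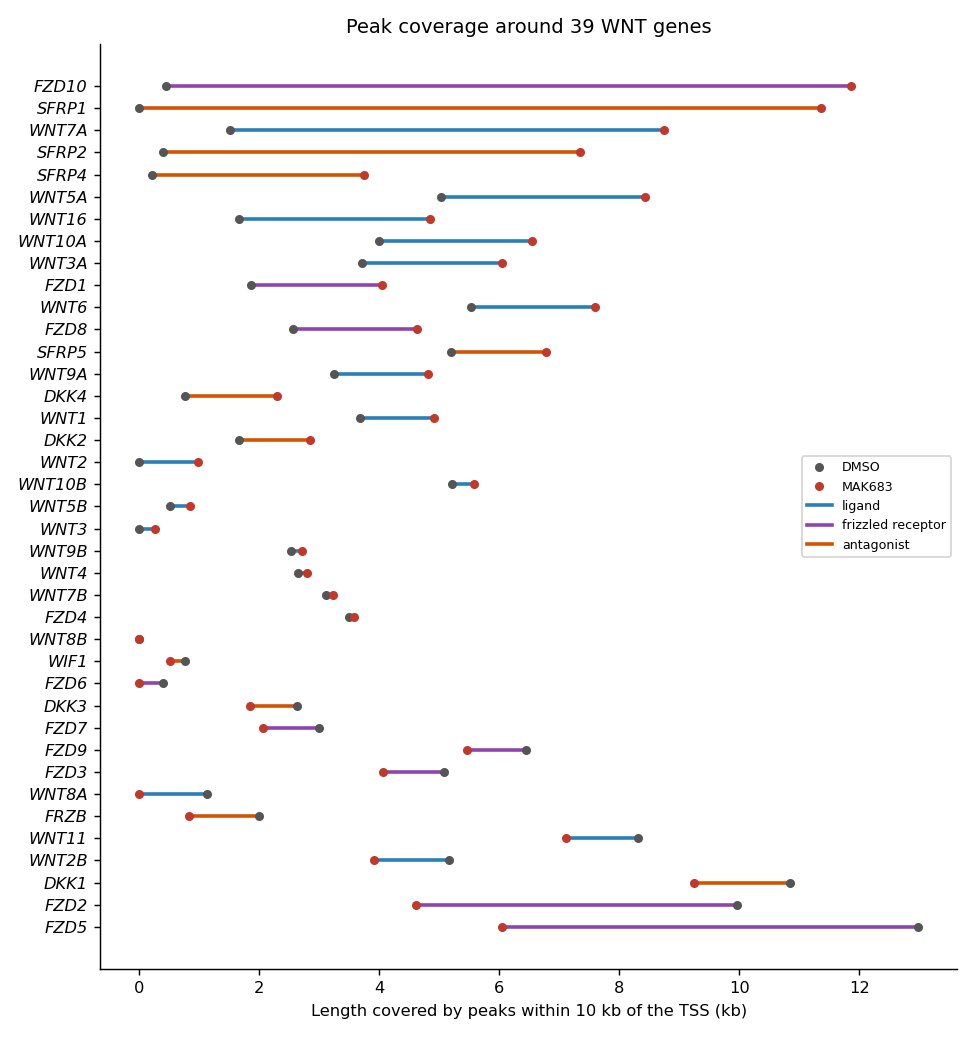
Length covered by peaks within 10 kb of the TSS (x axis, kb) at each of the 39 members (y axis, ordered by the difference), with DMSO as gray points, MAK683 as red points and a line between them colored by role. FZD10, SFRP1, WNT7A and SFRP2 at the top have the largest excess in MAK683, and FZD2 and FZD5 at the bottom the largest excess in DMSO.

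**Figure D5:**
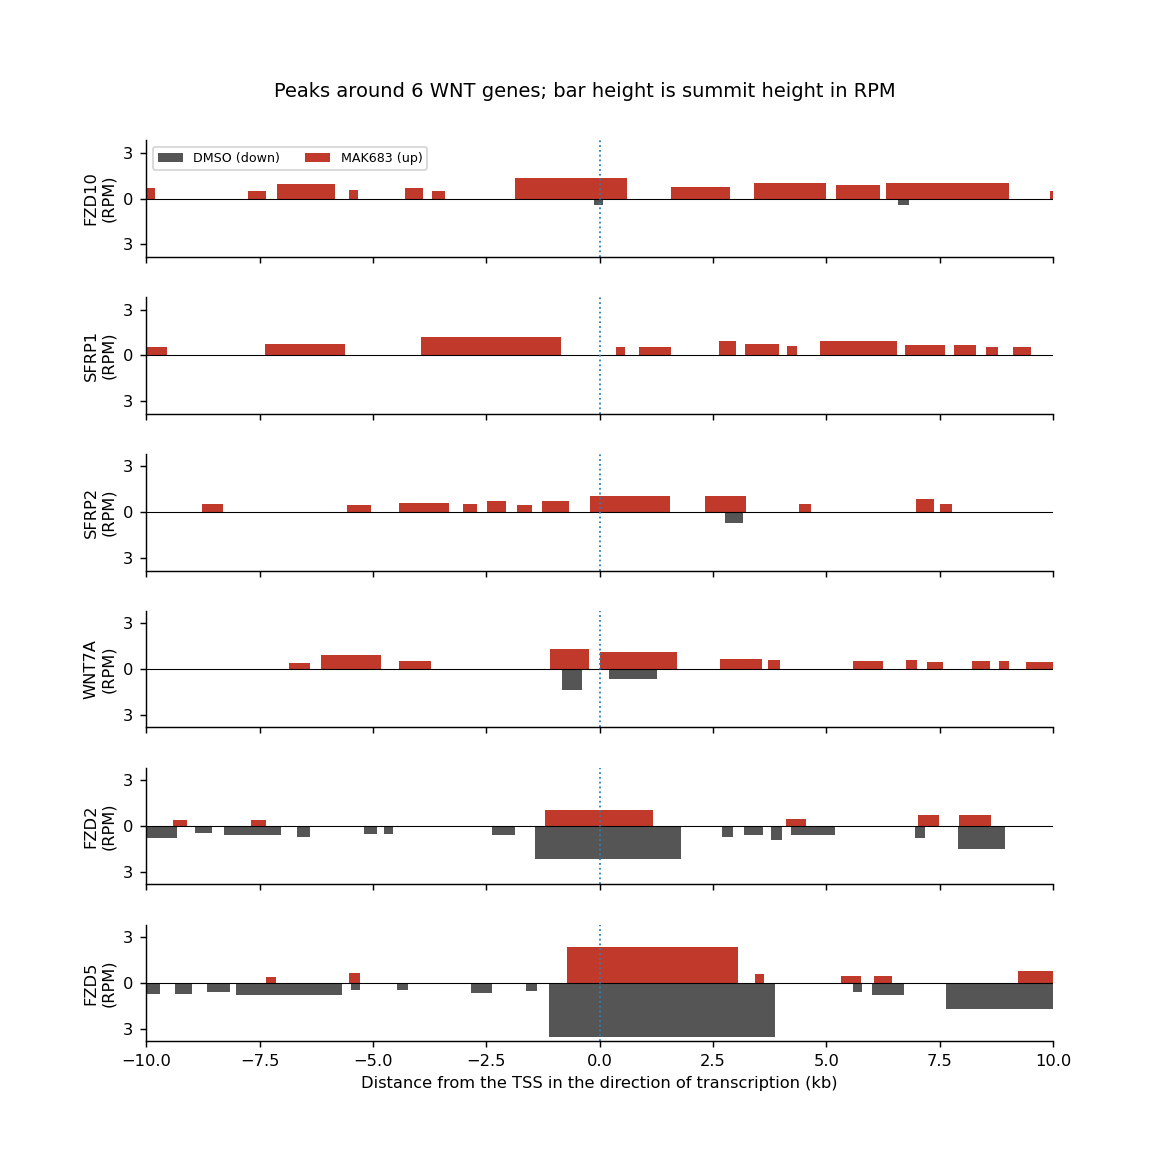
Peaks within 10 kb of the TSS of 6 members, drawn as bars from peak start to end by distance from the TSS in kb in the direction of transcription (x axis), with summit height in RPM (y axis) upward in red for MAK683 and downward in gray for DMSO. FZD10 and SFRP1 carry many MAK683 peaks on both sides of the TSS, and FZD2 and FZD5 carry more peaks in DMSO.

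Peaks inside the genes, beyond 3 kb from the TSS, were also more numerous in MAK683 at several members. Their number was larger in MAK683 at 16 of 39 members, smaller at 7 and equal at 16, where the share with more among all genes was 24.9%. In total there were 88 in DMSO and 165 in MAK683, a ratio of 1.88, against 1.20 over all genes. WNT7A had 0 in DMSO and 27 in MAK683, SFRP1 had 0 and 21, and WNT2 had 0 and 16. These were low peaks, with 7 to 13 tags at WNT7A, 7 to 17 at SFRP1 and 6 to 13 at WNT2. WNT5B, which had no peak at its canonical TSS, went the other way with 24 gene-body peaks in DMSO and 14 in MAK683. That TSS (chr12:1738397) lies inside a gene that starts at 1639057, so gene-body peaks of WNT5B can lie at other TSSs. With a −log10 q of 5 or more required, 6 of 39 members had more in MAK683 and 8 had fewer, and 14.7% of all genes had more, so at that limit the members' share was near the background. The MAK683 library also listed more peaks genome-wide, and what part that had here was not tested.

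The flanks of these genes differed too. Counting peaks up to 250 kb beyond either end of the gene, FZD10 had 24 in DMSO and 110 in MAK683, SFRP1 had 8 and 53, WNT7A 13 and 53, and SFRP2 8 and 41. FZD1 had 4 and 36, although its promoter height was lower. FZD5 had 143 and 85, and FZD2 86 and 60. At these genes the promoter neighborhood and its flanks differed in the same direction, with FZD1 as the exception in promoter height and WNT7A with a level promoter. They were chosen after their values were seen, so this cannot be read as a trait of the family. At FZD6, not among them, the covered length was shorter in MAK683 while flank peaks were 15 in DMSO and 28 in MAK683. Flank counts over all genes are not given, and the part of the larger MAK683 peak list was not tested.

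The rest of the WNT pathway had list medians from -0.45 to -0.15. Over 28 genes of WNT secretion, co-receptors and secreted modulators the median log2 ratio was -0.31, with 2 at least 2-fold higher and 1 lower. The lower gene was RNF43, an E3 ligase that removes frizzled receptors from the surface, with 27 tags (1.63 RPM) in DMSO and 12 (0.657 RPM) in MAK683, a log2 ratio of -1.31 (interval -2.29 to -0.33). The higher genes were LGR5, a receptor for R-spondins, with 10 and 23 tags (log2 ratio 1.06, interval -0.01 to 2.13), and SOSTDC1, a secreted inhibitor with no listed DMSO peak and 14 tags in MAK683 (1.08 against the floor). Over 25 intracellular genes the median was -0.45, with 1 at least 2-fold higher, the kinase gene TNIK (no listed peak and 16 tags, 1.28). Over 13 genes known as WNT targets the median was -0.15. Higher were TNFRSF19 (no listed peak and 26 tags, 1.98) and TBXT, the mesoderm factor (no listed peak and 16 tags, 1.28), and lower was CDX1, an intestinal factor (30 and 16 tags, log2 ratio -1.04, interval -1.92 to -0.17). AXIN2, the general feedback target of β-catenin signaling, had 20 tags in DMSO and 18 in MAK683 (log2 ratio -0.29, interval -1.21 to 0.63). Of the 66 genes together, 5 were at least 2-fold higher and 2 lower among 64 with a peak, with 3.37% and 5.75% of all genes. Of 58 with both peaks, 0 intervals lay above 0 (0.931% of all genes) and 10 below (20.6% of all genes). Beside RNF43 and CDX1 the latter were the Dickkopf receptor gene KREMEN1, the WNT receptor gene RYK, the intracellular genes BCL9L, CSNK1A1, DVL3 and PYGO1, and the targets CCND1 and FGF20, with log2 ratios from -0.97 (RYK) to -0.63 (BCL9L). At KREMEN1 and CCND1 the summits lay over 1 kb apart. These counts hold for depth scaling only. Rescaled to shared promoters, 0.889% of all genes had intervals below 0 and 4.56% above it, and rescaled intervals of these lists are not given.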

How the data were processed

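ATAC-seq peaks of 1 DMSO-treated and 1 MAK683-treated G401 culture were used. Per the study's methods and labels, the authors trimmed reads with Trim-galore, aligned them to hg19 with Bowtie2 and called peaks with MACS. Per the file headers this was version 2.1.1.20160309, while the labels list 2.1.0 and 2.2.7.1. Tags were moved back by 100 bp and lengthened to 200 bp so that each was centered on the Tn5 cut, without control or local background, with 1 tag kept per position and a q-value cutoff of 0.05. The tags after filtering were 16598348 of 23901891 (DMSO) and 18265284 of 26692938 (MAK683). The MAK683 concentration for this assay is not given in the sources used here.

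The deposited pileup signal is the number of tags at the summit, unscaled. The deposited fold enrichment is a ratio to the genome-wide background, and the −log10 p-value and q-value that the authors deposited depend on depth. Fold enrichment and q were used only for alternatives. Heights under the listing limit (6 tags) are not seen.

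Pileups were divided by tags after filtering and multiplied by 1000000. Each gene had 1 TSS, that of its canonical transcript in GENCODE 44 lifted to GRCh37. Ratios of single promoters have 95% Poisson intervals (normal approximation on the log scale). All intervals cover counting error only, because there was 1 library per group. PCR copies of a molecule could not be told apart by molecular identifiers. Interval code was tested on simulated data. The members, pathway lists and naming rule were chosen with earlier results of these data known: genes past 2-fold, with an interval leaving out 0, or with a peak in 1 library only are given in full, and the rest by their tags. Genes named for covered length, gene-body peaks and flanks, and LGR5, SOSTDC1, TNIK, TNFRSF19, TBXT and AXIN2, were chosen after their values were seen. Alternatives covered TSS windows and sets, q limits, scaling, fold enrichment and summed pileups. Python 3.11.15, numpy 2.4.6, pandas 2.3.3 and scipy 1.17.1 were used. Reference sequence is printed for some of the named members and is not reported here for the rest.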

Additional observations from a re-analysis of the deposited data

How the results depend on the processing

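With 1 library per group, only counting error could be given, and heights under 6 tags were not listed. No paired analysis was possible because each group had 1 library. The median log2 ratio of the members, -0.14, was 0.32 when libraries were rescaled to the median of shared promoters, 0.00 without depth scaling and 0.02 for summed pileups. The 3 members at least 2-fold higher became 6 within 1 kb (adding WNT6, WNT11 and SFRP2), 6 after rescaling (adding WNT2, FZD9 and SFRP2), 5 for summed pileups and 0 where −log10 q had to reach 10. In that order, 3.34%, 10.2%, 9.4% and 0.127% of all genes were at least 2-fold higher. Within 1 kb, the DMSO peaks that overlapped the MAK683 peaks of WNT6 and WNT11 fell just outside the window. After rescaling, the ratios of FZD9 and SFRP2 compared summits over 1 kb apart. For SFRP2 the overlapping peaks of the libraries had the same tags, 11 in DMSO and 19 in MAK683. The 1 member at least 2-fold lower, FZD2, became 0 without depth scaling, 0 after rescaling, 0 for fold enrichment and 2 for summed pileups (FZD2 and FRZB). In that order, 3.32%, 0.406%, 3.22% and 13.2% of all genes were at least 2-fold lower. The alternatives that follow were chosen after seeing the data. The 16 members with more gene-body peaks in MAK683 became 6 where −log10 q had to reach 5 and 3 where it had to reach 10, with 14.7% and 6.78% of all genes. The 25 with longer covered length became 22 and 18 at the same limits, with 22.2% and 16.9% of all genes. They became 23 within 5 kb and 22 within 50 kb, with 27.2% and 34.1% of all genes. The cause of these moves was not tested. At the q limits of 5 and 10 FZD10 had log2 ratios of 1.12 and 0.54, and SFRP1 had 0.41 at 10. For summed pileups they had 2.30 and 3.16. At the limit of 5, WNT2 had 0.24, WNT8A -0.14 and FZD6 0.00, which, with a peak in 1 library only, have no counting interval.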
